A study of Homo sapiens with 4 samples.

Results

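The DNAJ family was taken as the protein-coding genes of the deposited expression table whose symbol starts with DNAJA, DNAJB or DNAJC, without DNAJB1, which gave 43 of 28391 genes. Of these, 4 were DNAJA, 11 DNAJB and 28 DNAJC genes. RNA was sequenced from HCT116, an established human colorectal carcinoma cell line, with 2 libraries labelled wild type that carried a control hairpin (shNC) and 2 that carried a hairpin against ALKBH5 (shALKBH5). ALKBH5 is a demethylase whose substrate is N6-methyladenosine (m6A) in RNA. The labels name a single hairpin against ALKBH5 and give neither the time after its introduction nor whether separate cultures gave the libraries within a group. The p-values therefore measure only the spread between these libraries, which may be technical.

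DNAJ proteins, also called J-domain proteins or Hsp40s, are the cochaperones that bring client proteins to Hsp70 and stimulate its ATPase through a J domain with a conserved histidine-proline-aspartate motif. Class A members (DNAJA) carry a zinc-binding domain beside the J domain, class B members (DNAJB) a glycine-rich linker, and class C members (DNAJC) share only the J domain and place Hsp70 at particular sites, such as the protein import channel of mitochondria, the ribosome or clathrin-coated vesicles. In colon carcinoma cells, as in other dividing cells, the cytosolic members act in folding of new proteins and in the heat shock response, and those of the endoplasmic reticulum (ER) in secretory protein quality control.

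Each library held between 16398604 and 17493141 reads assigned to genes. ALKBH5 itself fell from 1905 and 1941 normalised counts in shNC to 312 and 270.2 in shALKBH5, so the libraries went with their labels. The epithelial markers KRT8, KRT18, KRT19, EPCAM and CDH1 were abundant, while the markers of differentiated colon CDH17, VIL1 and LGALS4 reached at most 13.3 normalised counts in any library. All 4 fibroblast markers with a row had reads, with a sum from 913 to 925 in shNC and from 858 to 882 in shALKBH5, nearly all from COL1A1. The 3 leukocyte markers summed to at most 20.4 and the 5 endothelial markers to at most 64.4. The part of these marker levels in the results below was not tested.

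Most DNAJ transcripts were at similar levels in both groups. In the comparison of shALKBH5 with shNC, limma-trend with Benjamini-Hochberg adjustment over 25887 genes passed 4 of the 43 members at an adjusted p under 0.05. DNAJA3 rose, while 1.98% of all genes tested rose, and DNAJB5, DNAJB14 and DNAJC6 fell, while 1.88% of all genes tested fell. All 43 members passed the filter on low values. The 4 called members are 9.30% of the family, against 3.86% of all genes tested. Calls were more frequent among well-read genes, and at a shNC mean of at least 50 normalised counts 4 of 37 members (10.8%) were called against 7.85% of all such genes. The family's share was thus near that background. The median log2 fold change was -0.03 over the members and -0.00 over all genes tested. Within 0.25 of zero on the log2 scale lay 30 of the 43 members and 12653 of the 25887 genes tested. At a shNC mean of at least 50 these were 28 of 37 members and 9201 of 12540 genes. An unadjusted limma-trend p under 0.05 was reached by 9 members as higher and 8 as lower. Over all genes tested the shares were 10.7% higher and 10.7% lower. At a shNC mean of at least 50, 9 of 37 members were higher and 8 lower by this p. Of the 12540 genes at that level, 2264 were higher and 2209 lower.

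Summed over the family, normalised counts overlapped between the groups, at 29691 and 29556 in shNC, and 29748 and 29487 in shALKBH5. As a share of all normalised counts the family was lower without overlap, from 0.176% to 0.178% in shNC and from 0.173% to 0.174% in shALKBH5. Summed per kb of exon it was higher without overlap, at 5673 and 5619.9 in shNC and 5779 and 5767 in shALKBH5. These sums were not tested. In 13 members both shALKBH5 libraries were above both shNC libraries, in 17 members both were below, and in 13 the groups overlapped, while 25.0% of all genes tested were higher and 25.6% lower without overlap. Together 69.8% of the members had groups that did not overlap, against 50.6% of all genes tested. At a shNC mean of at least 50 the shares were 75.7% and 63.6%.

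**Figure D1:**
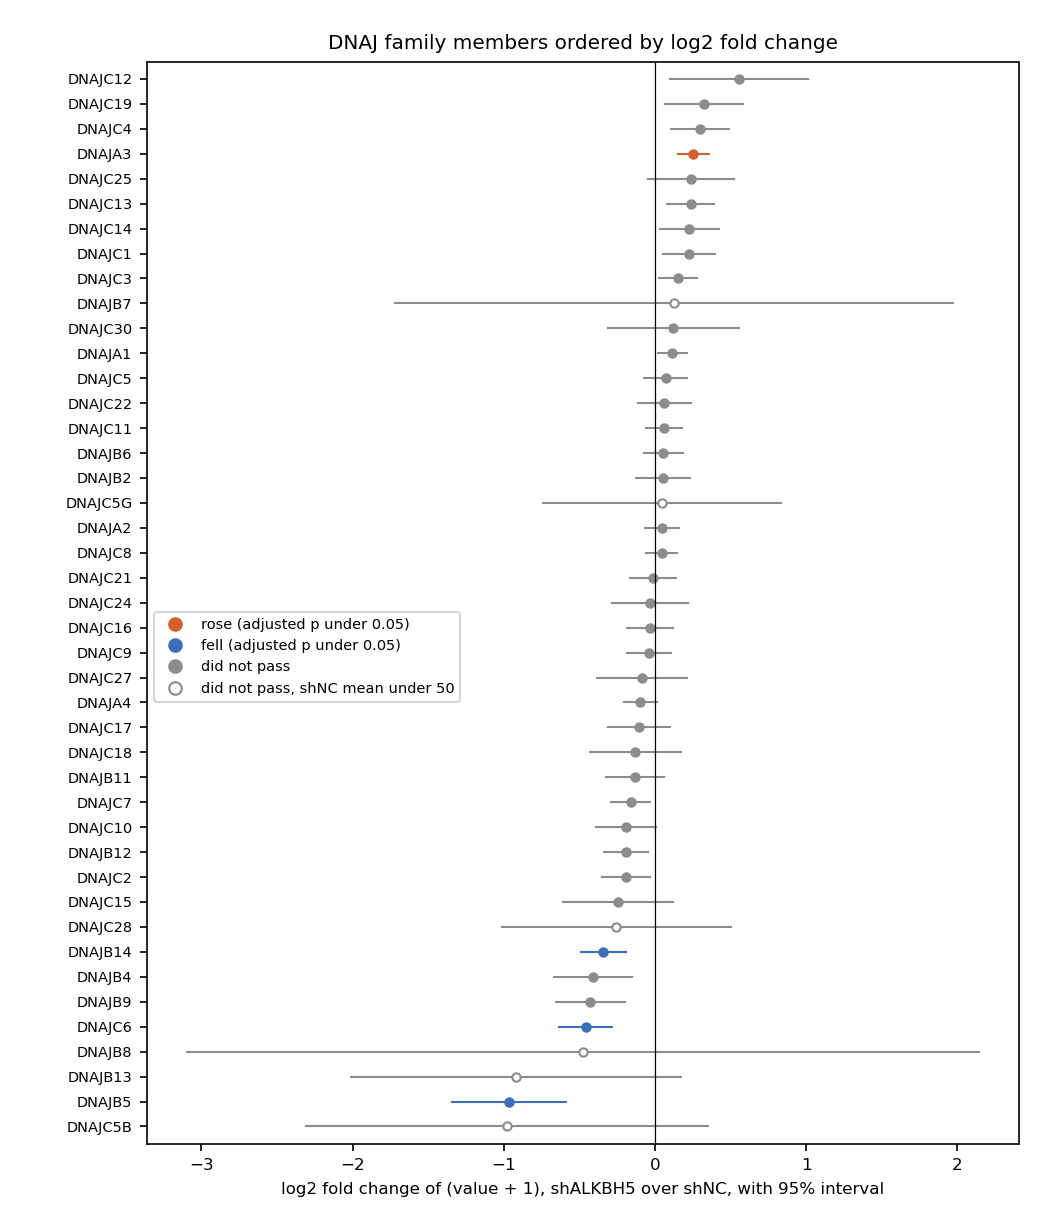
Log2 fold change of (value + 1), shALKBH5 over shNC (x axis), for the 43 DNAJ members (y axis), with 95% intervals from limma-trend and 2 libraries per group. DNAJA3 is coloured as risen and DNAJB5, DNAJB14 and DNAJC6 as fallen, most others lie close to 0, and the wide intervals belong to members with a shNC mean under 50 normalised counts.

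DNAJB5, a cytosolic class B cochaperone closely related to DNAJB1, had the largest change of the 4 called members. Its transcript (ENSG00000137094, chromosome 9, 34989641 to 34998900, plus strand on GRCh38) had 287 and 366 normalised counts in shNC, and 153 and 179 in shALKBH5. Both shALKBH5 libraries lay below both shNC libraries. The mean fell from 327 ± 55.5 (SD, n = 2) to 166 ± 18.5 (SD, n = 2), a log2 fold change of -0.96 ± 0.151 (SE) on the log2(value + 1) scale (limma-trend adjusted p 0.0391). In bulk RNA a lower level in every cell and a loss in part of the cells cannot be told apart.

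DNAJC6 encodes auxilin, which recruits Hsc70 to uncoat clathrin-coated vesicles. Its transcript (ENSG00000116675, chromosome 1, 65248219 to 65415869, plus strand) was at 468 and 491 normalised counts in shNC and at 356 and 342 in shALKBH5, again without overlap. The log2 fold change was -0.46 ± 0.0705 (SE) (limma-trend adjusted p 0.0374). GAK, the ubiquitously expressed relative of auxilin, was at 3205 and 3221 in shNC and at 3004 and 2895 in shALKBH5, or -0.12 on the log2 scale (adjusted p 0.144 in limma-trend and 0.0483 in edgeR).

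DNAJB14 is an ER membrane protein whose J domain faces the cytosol, where it works with Hsc70 in degradation of ER membrane proteins. Its transcript (ENSG00000164031, chromosome 4, 99896248 to 99946726, minus strand) was at 1002 and 1041 normalised counts in shNC and at 777 and 837 in shALKBH5. The log2 fold change was -0.34 ± 0.0599 (SE) (limma-trend adjusted p 0.0483). It missed the threshold with a pseudocount of 0.5 (limma-trend adjusted p 0.0541) and without the filter on low values (limma-trend adjusted p 0.0574). Its paralog DNAJB12, in the same membrane, was at 620.1 and 611 in shNC and at 529.9 and 547 in shALKBH5, a log2 fold change of -0.19 with a 95% interval from -0.34 to -0.05 and an adjusted p of 0.145 in limma-trend.

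DNAJA3, known as Tid1, is the class A cochaperone of the mitochondrial matrix and works with mitochondrial Hsp70. It was the member that rose. Its transcript (ENSG00000103423, chromosome 16, 4425805 to 4456775, plus strand) was at 1656 and 1697 normalised counts in shNC and at 2025 and 1974 in shALKBH5. The mean went from 1676 ± 29.04 to 1999 ± 36.0, a 1.19-fold rise with a log2 fold change of 0.25 ± 0.0414 (SE) and an adjusted p of 0.0418 in limma-trend.

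These 4 calls depended on the shNC libraries in limma-trend. With shNC library 1 or 2 left out, limma-trend did not pass them, nor any other gene of the table. In edgeR on the reads of the same 3 libraries they still passed. The log2 fold changes without shNC library 1 or 2 were -1.14 or -0.79 for DNAJB5, -0.49 or -0.42 for DNAJC6, -0.37 or -0.31 for DNAJB14 and 0.24 or 0.27 for DNAJA3. In the authors' deposited table the same 4 members have an adjusted p under 0.05, from 0.000133 for DNAJB5 to 0.0254 for DNAJC6. Of all its 28391 genes 5.23% do, and of the 12428 genes with an adjusted p in DESeq2 11.9% do. The DESeq2 fit given below repeats the deposited log2 fold changes to within 4.03e-05, so it is not a separate result.

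**Figure D2:**
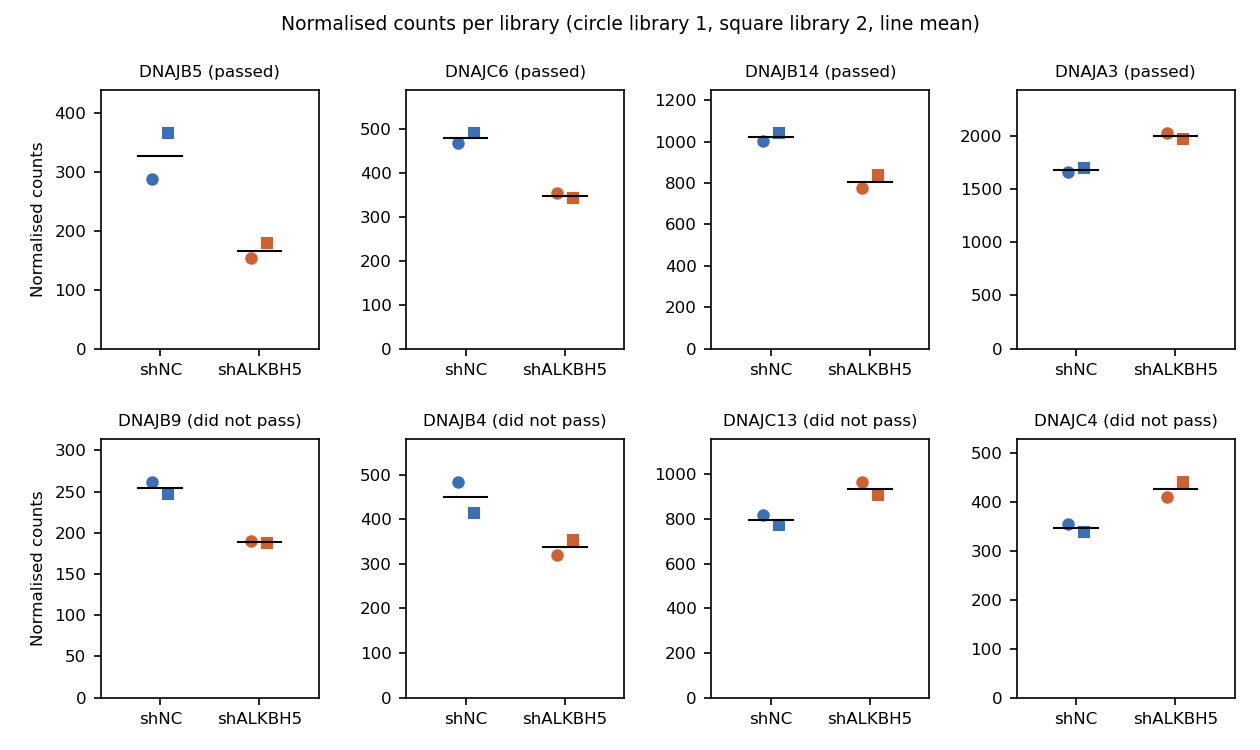
Normalised counts (y axis, from 0) of 8 members in the 2 shNC and the 2 shALKBH5 libraries (x axis). Points are libraries (circle library 1, square library 2) and lines are group means. The upper row holds the 4 members that passed and the lower row 4 that did not pass in limma-trend, all with groups that do not overlap.

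Promoters of the 4 called members are shown because these members passed in limma-trend. Those of DNAJA1 and DNAJB6 are shown because they held the heat shock element searched for here. The windows run from 250 bases before to 50 bases after a start, from RefSeq on GRCh38.p14, and 39 of the 43 members had a window, 8 of them more than 1. The motifs searched on both strands were the heat shock element (a GAA unit, its inverted form TTC and again a GAA unit, with 2 free bases between neighbours), the ER stress element (a CCAAT box followed after 9 free bases by the letters CCACG), whose first part is itself counted as a CCAAT box, the cAMP response element TGACGTCA, the E-box CACGTG, and the CCAAT box. Capitals mark a match on either strand, so that a CCAAT box on the opposite strand reads ATTGG.
DNAJB5, chr9:34990040-34990339, plus strand: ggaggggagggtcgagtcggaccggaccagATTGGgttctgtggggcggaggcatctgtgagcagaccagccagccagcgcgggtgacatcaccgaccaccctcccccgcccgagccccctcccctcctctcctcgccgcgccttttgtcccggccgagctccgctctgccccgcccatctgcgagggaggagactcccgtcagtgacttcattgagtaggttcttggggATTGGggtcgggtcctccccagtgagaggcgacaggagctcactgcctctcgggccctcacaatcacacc
DNAJC6, window 1, chr1:65264499-65264798, plus strand: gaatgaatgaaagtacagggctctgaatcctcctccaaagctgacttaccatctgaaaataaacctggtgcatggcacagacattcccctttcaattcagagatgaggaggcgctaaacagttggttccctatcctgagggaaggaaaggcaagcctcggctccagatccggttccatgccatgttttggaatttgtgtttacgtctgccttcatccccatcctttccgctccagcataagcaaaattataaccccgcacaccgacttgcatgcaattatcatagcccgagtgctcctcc
DNAJC6, window 2, chr1:65309293-65309592, plus strand: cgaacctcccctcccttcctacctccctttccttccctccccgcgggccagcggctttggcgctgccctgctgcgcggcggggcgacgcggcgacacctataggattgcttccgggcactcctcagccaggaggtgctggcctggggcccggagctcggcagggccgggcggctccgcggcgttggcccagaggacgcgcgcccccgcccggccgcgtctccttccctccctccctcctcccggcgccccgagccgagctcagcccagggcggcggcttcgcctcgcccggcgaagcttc
DNAJB14, chr4:99946569-99946868, minus strand: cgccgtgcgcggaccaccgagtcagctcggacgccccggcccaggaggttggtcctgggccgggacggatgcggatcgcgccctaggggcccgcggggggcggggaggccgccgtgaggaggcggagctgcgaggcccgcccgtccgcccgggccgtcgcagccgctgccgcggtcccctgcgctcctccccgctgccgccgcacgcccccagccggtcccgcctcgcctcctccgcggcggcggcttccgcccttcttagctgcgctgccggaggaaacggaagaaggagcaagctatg
DNAJA3, chr16:4425618-4425917, plus strand: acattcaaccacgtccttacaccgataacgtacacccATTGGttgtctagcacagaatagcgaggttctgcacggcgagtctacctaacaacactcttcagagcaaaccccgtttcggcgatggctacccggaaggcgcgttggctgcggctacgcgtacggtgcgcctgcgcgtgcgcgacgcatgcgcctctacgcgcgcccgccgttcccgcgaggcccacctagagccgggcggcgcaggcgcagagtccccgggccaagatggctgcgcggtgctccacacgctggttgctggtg
DNAJA1, chr9:33025023-33025322, plus strand: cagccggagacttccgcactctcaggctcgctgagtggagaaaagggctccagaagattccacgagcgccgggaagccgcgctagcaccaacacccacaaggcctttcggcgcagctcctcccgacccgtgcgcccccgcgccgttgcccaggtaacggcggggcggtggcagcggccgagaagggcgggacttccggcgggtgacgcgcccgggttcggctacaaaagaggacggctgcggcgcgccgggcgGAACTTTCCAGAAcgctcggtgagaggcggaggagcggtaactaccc
DNAJB6, chr7:157336754-157337053, plus strand: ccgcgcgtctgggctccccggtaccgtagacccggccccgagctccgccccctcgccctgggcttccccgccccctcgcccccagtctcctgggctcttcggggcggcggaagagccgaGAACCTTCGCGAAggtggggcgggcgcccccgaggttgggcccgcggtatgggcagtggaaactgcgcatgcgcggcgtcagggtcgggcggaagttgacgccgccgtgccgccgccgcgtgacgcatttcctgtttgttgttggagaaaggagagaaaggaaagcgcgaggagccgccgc

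The heat shock element was found in 2 of 39 members (5.13%), against 166 of 27305 genes with a window (0.608%). It lay at bases 4 to 16 after the start in DNAJA1 and at -131 to -119 in DNAJB6, taking the first of the 50 downstream bases as position 1. Windows of DNAJB1, the heat-inducible gene left out of the family, held no match to this exact pattern. A missing match therefore does not show that a gene lacks a heat shock element. DNAJA1 had a log2 fold change of 0.11 and DNAJB6 of 0.06, and neither passed in limma-trend. No window of a member held the ER stress element, which 0.0916% of genes had. A CCAAT box was in 16 members (41.0%), DNAJB5 and DNAJA3 among them, against 39.7% of genes. The E-box was in 4 members (10.3%, against 8.77% of genes) and the cAMP response element in 1 (2.56%, against 2.25%). The windows of DNAJC6 and DNAJB14 held none of these letters, which says nothing of the factors that bind there.

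The sequence GGACT, written as DNA, which lies within the consensus of m6A sites, was counted in the longest protein-coding transcript of each gene in GENCODE release 29. DNAJB5 had 1 copy, or 0.326 per kb, DNAJA3 1 (0.362 per kb), DNAJB14 4 (0.658 per kb) and DNAJC6 6 (1.01 per kb). The median was 0.776 per kb over the 43 members and 0.952 over 15453 protein-coding genes tested. Methylation of these copies was not measured here.

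Among the 8 cytosolic Hsp70 partners, 1 (DNAJB5) fell, 0 rose and 7 did not pass in limma-trend, while 1.88% of all genes tested fell. DNAJA1, the main class A cochaperone of the cytosol, was the most abundant member of the family. Its level was 869 normalised counts per kb of exon in shNC and 940.2 in shALKBH5. DNAJA1 was read at 2391 and 2351 normalised counts in shNC and at 2605 and 2528 in shALKBH5, which is 0.11 on the log2 scale (limma-trend adjusted p 0.174). DNAJB4, a close relative of DNAJB1 and DNAJB5, was at 483 and 415 in shNC and at 320.2 and 354 in shALKBH5, without overlap. Its log2 fold change was -0.41 with a 95% interval from -0.67 to -0.15, and it did not pass in limma-trend (adjusted p 0.101), while edgeR gave an adjusted p of 0.00575. The other members of this group, DNAJA2, DNAJA4, DNAJB2, DNAJB6 and DNAJC7, had log2 fold changes from -0.16 to 0.06.

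DNAJB1, the heat-inducible class B cochaperone left out of the family here, was at 6474 and 7031 normalised counts in shNC and at 3274 and 3064 in shALKBH5, or -1.09 on the log2 scale (limma-trend adjusted p 0.00221). Per kb of exon it stood at 1839 in shNC, above DNAJA1. Its relatives DNAJB5 and DNAJB4 thus stand beside it at -0.96 and -0.41. Whether the log2 fold changes of DNAJB1, DNAJB5 and DNAJB4 differ from each other was not tested.

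Of the 11 DNAJB members, 0 rose, 2 fell and 9 did not pass in limma-trend, while edgeR passed 4 of the 9 it tested as lower. Over all genes tested, 1.88% fell in limma-trend and 10.4% in edgeR. Both shALKBH5 libraries lay below both shNC libraries in 7 of the 11 and above in 0, against 25.6% lower and 25.0% higher of all genes tested. Its median log2 fold change was -0.34, and -0.27 over the 8 members with a shNC mean of at least 50, where 6 were lower without overlap. Of all 12540 genes at that level, 3947 were lower without overlap and 4034 higher. In the DNAJA subfamily 3 of 4 members were higher without overlap and 1 lower, with a median of 0.08. Of the 28 DNAJC members, 10 were higher and 9 lower without overlap, with a median of 0.02, and the same shares over all genes apply to both. The subfamilies were not tested against each other.

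In the ER, 1 of 11 members (DNAJB14) fell, 0 rose and 10 did not pass in limma-trend, while 1.88% of all genes tested fell. The members lay in both directions, with 4 higher and 6 lower without overlap and log2 fold changes from -0.43 to 0.24. Groups did not overlap in 50.6% of all genes tested and in 63.6% of those with a shNC mean of at least 50. DNAJB9, known as ERdj4, is a soluble cochaperone of the Hsp70 BiP and a target of the unfolded protein response. It was at 262 and 247 normalised counts in shNC and at 190.5 and 187 in shALKBH5. The log2 fold change was -0.43 (95% interval -0.66 to -0.20). It did not pass in limma-trend, with an adjusted p of 0.072, and edgeR gave 0.0178. DNAJB9 shares 6.45% of its exon bases with PNPLA8 and THAP5 on the opposite strand. DNAJB11, another soluble cochaperone of BiP, was the most abundant of the ER group at 159.8 per kb in shNC and 146 in shALKBH5. Its normalised counts were 977 and 855 in shNC and 846 and 824 in shALKBH5, close to overlap, and the difference of -0.13 (log2) did not pass (limma-trend adjusted p 0.388).

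DNAJC10, an ER disulfide reductase known as ERdj5, was at 1969 and 1838 normalised counts in shNC and at 1788 and 1553 in shALKBH5, with adjusted p-values of 0.243 in limma-trend and 0.0308 in edgeR. DNAJC3, another cochaperone of BiP and an inhibitor of the kinase PERK, lay the other way. It was at 803 and 795 in shNC and at 894 and 881 in shALKBH5, or 0.15 on the log2 scale (limma-trend adjusted p 0.164). DNAJC1, an ER membrane member, had a log2 fold change of 0.23 and DNAJC14, which is known for export of dopamine receptors from the ER, also of 0.23. Neither passed in limma-trend, at adjusted p-values of 0.147 and 0.174. DNAJC14 shares 58.1% of its exon bases with other genes, among them AC023055.1 on the same strand and ORMDL2 on the opposite strand. A use of strand in counting is not stated. At least 20% of exon bases are shared in 7 members. Among these are DNAJC9 (29.1%), DNAJC11 (27.9%), DNAJC17 (26.1%) and DNAJB11 (23.2%).

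In mitochondria, 1 of 5 members (DNAJA3) rose, 0 fell and 4 did not pass in limma-trend, while 1.98% of all genes tested rose. DNAJC19, a subunit of the motor that pulls proteins through the inner membrane, was at 298 and 301 normalised counts in shNC and at 345 and 408 in shALKBH5. The shALKBH5 libraries lay above shNC but apart from each other, and the log2 fold change of 0.32 had an adjusted p of 0.154 in limma-trend and 0.0346 in edgeR. Processed pseudogenes of DNAJC19 have rows of their own in the table, so some of its reads are uncertain. DNAJC15, a relative of DNAJC19 that also restrains respiratory complex I, had a log2 fold change of -0.25, with 1 shALKBH5 library at 272 and the other at 207. DNAJC11, of the membrane contact site complex, and DNAJC30, which is linked to respiratory chain function, had log2 fold changes of 0.06 and 0.12.

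Of the 3 vesicle and endosome members, DNAJC6 fell and the other 2 did not pass in limma-trend, while 1.88% of all genes tested fell. DNAJC5, the cysteine string protein of secretory vesicles, was the most abundant of them. It was at 2220.0 and 2450.0 normalised counts in shNC and at 2476 and 2422 in shALKBH5, which overlap. DNAJC13, an endosomal protein that acts in receptor recycling, was at 817 and 771 in shNC and at 966 and 906 in shALKBH5. Its log2 fold change of 0.24 had an adjusted p of 0.107 in limma-trend and 0.0235 in edgeR.

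The members of the ribosome, the spliceosome and histone handling had log2 fold changes from -0.19 to 0.04, and 0 of these 6 passed in limma-trend. At an unadjusted limma-trend p under 0.05 there was 1 of them (DNAJC2, lower), while 10.7% of all genes tested were lower. Likewise edgeR passed 0, against 20.8% of all genes it tested. DNAJC2, the cochaperone at the ribosome's exit tunnel, was at 596 and 574 in shNC and at 524 and 500.4 in shALKBH5, a log2 fold change of -0.19 (95% interval -0.35 to -0.03). DNAJC8, a spliceosome component, was the second most abundant member at 663 per kb in shNC and 683 in shALKBH5, and differed by 0.04 on the log2 scale (95% interval -0.06 to 0.15). DNAJC9, a histone chaperone, was at -0.04 (-0.18 to 0.10), and DNAJC21, a ribosome biogenesis factor, at -0.01 (-0.16 to 0.14). The diphthamide synthesis factor DNAJC24 was at -0.03 and the splicing factor DNAJC17 at -0.11.

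Members known from testis and cilia were barely read. DNAJB7, DNAJB8, DNAJB13, DNAJC5B and DNAJC5G had shNC means from 2.89 to 29.8 normalised counts, and 0 of 5 passed in limma-trend, which also gave 0 an unadjusted p under 0.05. edgeR tested 2 of the 5 and DESeq2 gave an adjusted p to 0 of them. DNAJB13, a protein of the sperm and cilia axoneme, was at 10.5 and 12.3 in shNC and at 5.07 and 6.01 in shALKBH5, with a 95% interval of the log2 fold change from -2.01 to 0.17. DNAJC5B, a testis relative of DNAJC5, was at 4.76 and 7.15 in shNC and at 3.04 and 2.0 in shALKBH5, and DNAJC5G, the most abundant of the group, overlapped between the groups. DNAJB8 was at 0 in shALKBH5 library 1 and at 5.00 in library 2. At this depth a change of these genes could not be detected unless it was large.

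Of the 5 members with no role assigned, 0 passed in limma-trend, against 3.86% of all genes tested. An unadjusted limma-trend p under 0.05 was reached by 2 of them as higher, against 10.7% of all genes tested. In edgeR 1 (DNAJC4) passed as higher, against 10.4% of all genes it tested. DNAJC12, which aids the folding of aromatic amino acid hydroxylases, had the highest log2 fold change of the family. It was at 59.0 and 55.2 normalised counts in shNC and at 77.0 and 92.1 in shALKBH5, or 0.55 on the log2 scale (limma-trend adjusted p 0.166). DNAJC4 was at 355 and 338 in shNC and at 411 and 441 in shALKBH5, with adjusted p-values of 0.104 in limma-trend and 0.0308 in edgeR. It shares 13.9% of its exon bases with NUDT22 and an antisense gene. DNAJC22, the most abundant of this group at 188 per kb in shNC, overlapped between the groups.

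Levels per kb of exon ranged widely within the family, from 0.793 for DNAJB8 to 869 for DNAJA1 in shNC, with a median of 87.2. In order, the highest were DNAJA1, DNAJC8 at 663, DNAJC5 at 442, DNAJA2 at 304, DNAJA3 at 237 and DNAJA4 at 209.7, followed by DNAJC9 at 205. The libraries of DNAJA4 and DNAJC9 overlapped on this scale, so their order was not beyond the spread. In shALKBH5 the first 5 kept their order, at 940.2, 683, 463, 314 and 283. The length is that of all annotated exons, so genes with long alternative exons, such as DNAJC10, are set low.

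**Figure D3:**
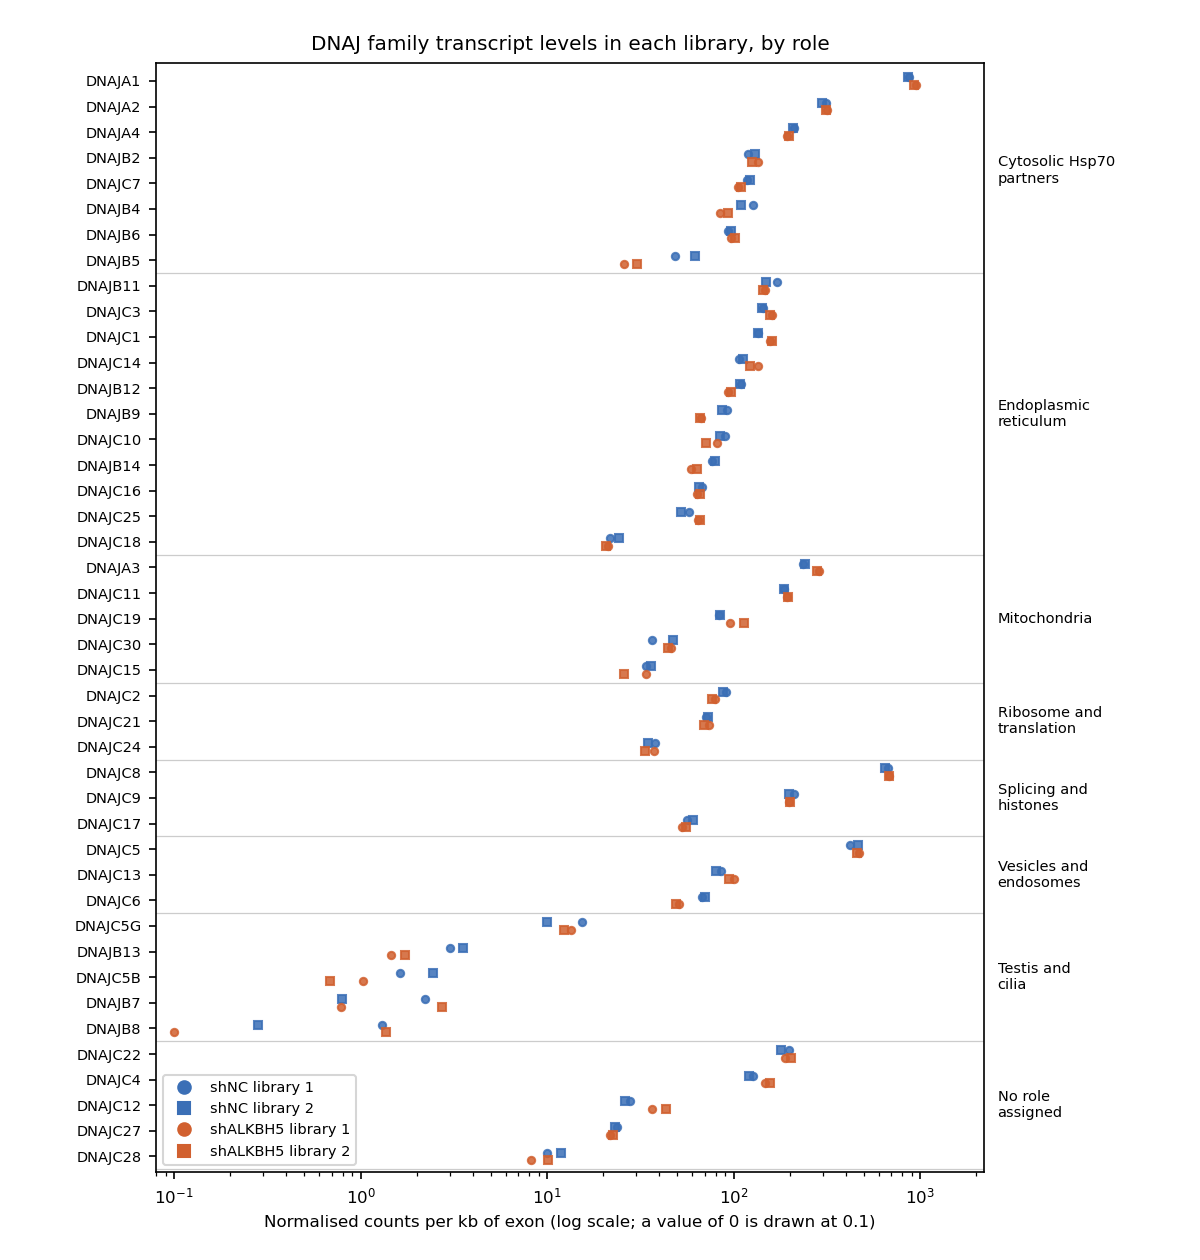
Normalised counts per kb of exon (x axis, log scale) of the 43 DNAJ members in each of the 4 libraries, grouped by role (y axis). Circles are library 1 and squares library 2 of each group. DNAJA1, DNAJC8 and DNAJC5 are the highest, DNAJB13, DNAJC5B, DNAJB7 and DNAJB8 the lowest, a value of 0 is drawn at 0.1, and blue and orange points separate clearly for DNAJB5.

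The DNAJ proteins act with Hsp70s, with nucleotide exchange factors that release ADP from Hsp70, and with adaptor cochaperones. The lists compared held these, J-domain proteins under other symbols, the heat shock factors and ER stress genes, 43 genes in all, with 44 rows in the table, since HSPA14 has 2. Of the 44 rows, 1 rose, 3 fell and 40 did not pass in limma-trend, 9.09% called against 3.86% of all genes tested and 7.85% of those with a shNC mean of at least 50, as nearly all of these rows have. In edgeR 28.6% of 42 rows passed, against 20.8% of all genes it tested, and in DESeq2 14.6% of 41, against 11.9%. The 3 that fell were among 13 rows of Hsp70 proteins, while 1.88% of all genes tested fell. At a shNC mean of at least 50, 485 of 12540 genes fell. In edgeR 5 of the 12 Hsp70 rows it tested passed as lower and 0 as higher. Of all genes it tested 10.4% passed as lower, and of the 12540 genes at that level 1635. An unadjusted limma-trend p under 0.05 was reached by 6 of the 13 rows as lower and 0 as higher, against 10.7% of all genes tested in each direction. HSPA8, the constitutive Hsp70 that most cytosolic DNAJ proteins serve, was at 24581 and 24884 normalised counts in shNC and at 18349 and 18124 in shALKBH5, or -0.44 on the log2 scale (limma-trend adjusted p 0.0033). The stress-inducible HSPA1B and HSPA1A had -1.10 and -1.13, and reads cannot be divided between this near-identical pair with certainty. HSPA5, which encodes BiP, the partner of the ER members, overlapped between the groups at 0.03, and HSPA9, the mitochondrial partner of DNAJA3, was at 0.06.

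None (0) of the 13 exchange factors passed in limma-trend, where 4 had an unadjusted p under 0.05, all higher, against 10.7% of all genes tested. As higher, edgeR passed 3 of the 13 (10.4% of all genes) and DESeq2 2 (6.38% of all genes). Both shALKBH5 libraries were above both shNC libraries in 9 of the 13, against 25.0% of all genes tested. They were below in 0, against 25.6%, and the median log2 fold change was 0.11. All 13 had a shNC mean of at least 50. Of the 12540 genes at that level, 4034 were higher and 3947 lower without overlap. Among the same genes, 2264 had an unadjusted limma-trend p under 0.05 as higher. As higher, edgeR passed 1579 of these 12540 genes and DESeq2 782 of 12362. HSPH1, the Hsp110 that acts as exchange factor in the cytosol, was at 2053 and 2120.0 in shNC and at 2637 and 2393 in shALKBH5, with adjusted p-values of 0.0728 in limma-trend, 0.000952 in edgeR and 0.00391 in DESeq2. HSPBP1 and HYOU1 had log2 fold changes of 0.24 and 0.13. Of 8 other cochaperones STIP1, which links Hsp70 to Hsp90, rose by 0.29 (limma-trend adjusted p 0.0216), and the other 7 did not pass in limma-trend, with log2 fold changes from 0.02 to 0.27. Among these 7, edgeR passed TTC1 (adjusted p 0.0140) and SGTA (adjusted p 0.0171). The J-domain proteins GAK, SEC63 and HSCB, named under other symbols, were lower without overlap, from -0.18 to -0.12, and did not pass in limma-trend, while edgeR passed GAK. HSF1 and HSF2, the heat shock transcription factors, had log2 fold changes of 0.08 and -0.14. Of the 4 ER stress genes, XBP1 had 0.14 and ERN1, EIF2AK3 and ATF6 from -0.09 to -0.04, and these 6 did not pass in limma-trend.

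**Figure D4:**
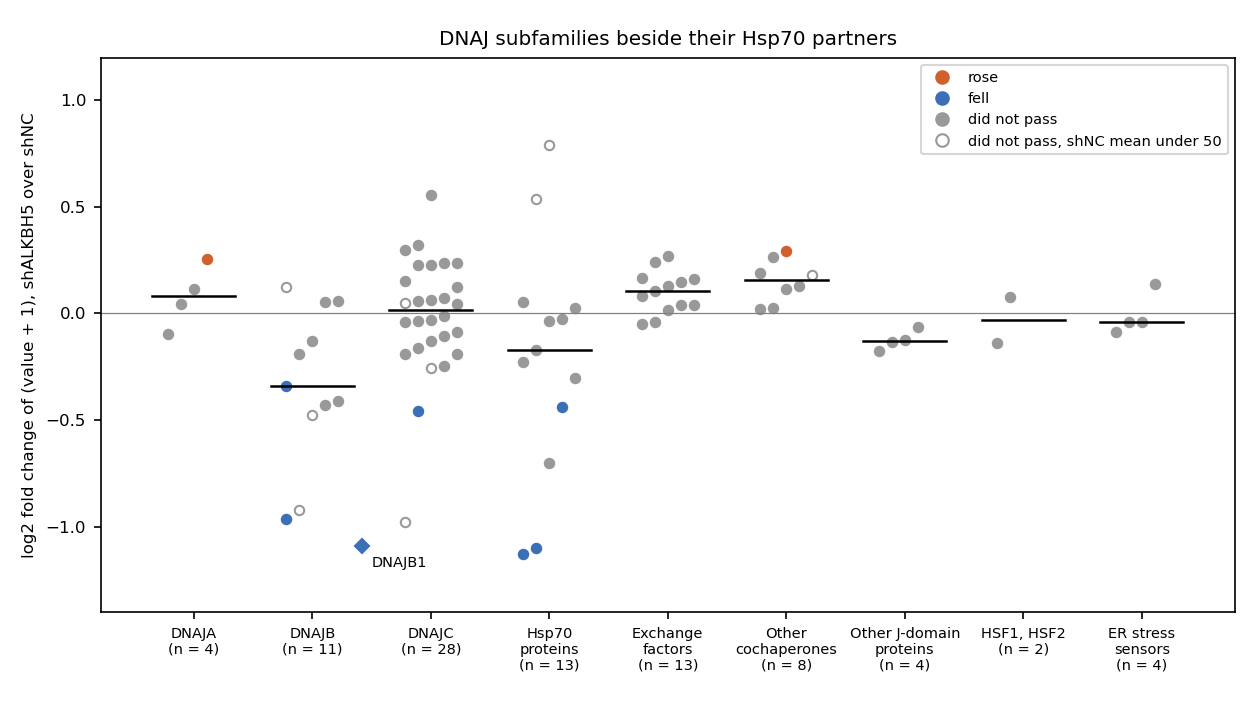
Log2 fold change of (value + 1), shALKBH5 over shNC (y axis), for each gene of the 3 DNAJ subfamilies and of the lists of Hsp70 partners (x axis). Points are genes, coloured by their limma-trend call, and lines are medians over the genes drawn. The DNAJB median lies at -0.34 and that of the exchange factors at 0.11, and DNAJB1 is drawn as a diamond outside the family.

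Other tools gave more or the same calls. On the recovered reads edgeR with Benjamini-Hochberg adjustment passed 4 members as higher (DNAJA3, DNAJC4, DNAJC13, DNAJC19) and 6 as lower (DNAJB4, DNAJB5, DNAJB9, DNAJB14, DNAJC6, DNAJC10). These are 25.0% of the 40 members it tested, against 20.8% of all genes it tested, 10.4% higher and 10.4% lower. DESeq2 passed the same 4 members as limma-trend, 10.8% of 37, against 11.9% of all genes with an adjusted p, 6.38% higher and 5.56% lower. By either tool the family's share was near the background.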

How the data were processed

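RNA was sequenced from 4 HCT116 libraries, 2 per hairpin group, from mRNA library kits per the labels' protocols. For aligner, counter, build and strand nothing is given in the sources used here. Positions of all 43 members equalled those of GENCODE release 29 on GRCh38. The authors deposited a signal per gene: its reads over one scale factor per library, a form read from the values. Their table also holds a deposited log2 fold change, p-value and adjusted p, per the file headers. Every value was a whole multiple of 1 read within 0.001 reads (100% of values).

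After a log2(value + 1) transform, genes reaching 1 in 2 or more libraries were kept. Then limma 3.58.1 (limma-trend, R 4.3.3) was fitted to all of them, p-values were adjusted by Benjamini-Hochberg, and 0.05 was the threshold. edgeR 4.0.16 (quasi-likelihood) and DESeq2 1.42.0 on the recovered reads were alternatives, as were other pseudocounts, filters, scalings, a replicate block and leaving out each library. Each fit was first tested on simulated counts of known change. DESeq2 differed from the authors' deposited log2 fold changes by at most 4.03e-05. Replicate libraries were not within sampling noise of each other (chi-square per gene 2.85 for shNC and 2.21 for shALKBH5). An exact permutation of 2 against 2 libraries could not reach the threshold and was not used.

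Members named in full are those past the threshold and, in each role group, the most abundant and the 2 with the largest absolute log2 fold change. Other members were named after their values were seen. The members, role groups and lists were chosen with earlier results of these data known. Levels per kb use the deposited exon length. For 1 gene of the Hsp70 network lists, individual values are not reported here.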

Additional observations from a re-analysis of the deposited data

How the results depend on the processing

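Main counts were 1 DNAJ member higher and 3 lower, and 1 Hsp70 network gene higher and 3 lower. With genes kept at a mean of at least 50, these became 4, 6, 7 and 6. There 3487 of 12540 genes were called, against 1000 of 25887 in the main fit, and 37 members were tested. In edgeR on recovered reads the counts were 4, 6, 6 and 6, with 3428 of 16473 genes called. Equal library totals, which shift all genes by -0.0332 on the log2 scale, gave 5 members lower and 2 network genes higher. That setting called 2059 of 24995 genes. DESeq2 gave 3 network genes higher, with 1484 of 12428 genes called. The cause was not tested. Leaving out 1 library, in limma-trend or edgeR, gave from 0 to 3 members higher, from 0 to 7 lower, from 0 to 7 network genes higher and from 0 to 5 lower. The lone library of a group is then assumed to vary like the other group. In the same fits the log2 fold change ranged from -0.010 to 0.132 for DNAJC22, from -0.121 to 0.052 for DNAJC24, from -0.0020 to 0.142 for DNAJC5 and from -0.26 to 0.36 for DNAJC5G, so their direction was not fixed. With a replicate block the counts were 0 members higher, 0 lower, 0 network genes higher and 2 lower, with 111 of 25887 genes called. Libraries with the same number did not deviate together (correlation -0.0275 over 12540 genes), so the numbers were not taken as pairs. The depth limits the 6 members with a shNC mean under 50.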

Other observations

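Of 9 noncoding rows of the table named after members, 3 were higher in shALKBH5 without overlap, against 25.0% of all genes tested, and in the other 6 (pseudogenes, DNAJB5-DT and the second row of DNAJC9-AS1) the groups overlapped, with log2 fold changes from -0.64 to -0.27. DNAJC27-AS1, antisense to DNAJC27, was at 10.5 and 22.5 normalised counts in shNC and at 34.5 and 27.0 in shALKBH5. DNAJC27 itself, a small GTPase with a J domain, was at 133 and 129.8 in shNC and at 122 and 126 in shALKBH5. The better-read of the 2 rows of DNAJC9-AS1 was at 30.4 and 25.5 in shNC and at 31.4 and 41.0 in shALKBH5. DNAJC3-DT, a long noncoding RNA named for DNAJC3, was at 22.8 and 23.5 in shNC and at 34.5 and 27.0 in shALKBH5. The limma-trend adjusted p-values of DNAJC27-AS1, DNAJC9-AS1 and DNAJC3-DT were 0.291, 0.537 and 0.506.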
